A study of Homo sapiens with 16 samples.

Results

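The genes described here are 10 members of the BCL2 family, which sets whether a cell keeps its mitochondria intact or dies by apoptosis. They were taken by symbol from a table of 57820 genes: the 3 pro-survival genes BCL2, BCL2L1 and MCL1, the 2 effector genes BAX and BAK1, and the 5 BH3-only genes BCL2L11, BBC3, PMAIP1, BIK and BMF. All 10 were found, once each. RNA came from CUTLL1, KOPTK1 and HPB-ALL, established human lines of T-ALL, a leukaemia of immature T cells. In each line lnrCXCR4, a long non-coding RNA, was targeted by lentiviral CRISPR guides, with a non-targeting guide as control. CUTLL1 and KOPTK1 also received an antisense oligonucleotide (ASO) against it, numbered 1 or 2 in the titles and brought to 1 uM in the culture. Their ASO controls received a scrambled one. Guide experiments had 1 control and 2 targeted libraries in CUTLL1 and KOPTK1 and 2 of each in HPB-ALL, and each ASO experiment had 1 control and 2 targeted libraries, 16 libraries in all. The time after treatment is not given in the sources used here. With 0 rows under the lncRNA's own name, its level was not checked here.

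Pro-survival proteins of the family hold BAX and BAK1 in check. BH3-only proteins answer stress by binding the pro-survival proteins, and some of them also switch on BAX and BAK1, which then open the outer mitochondrial membrane and release cytochrome c. T-lineage cells rely on BCL2 and MCL1 for survival at different stages, and the BH3-only protein BIM, encoded by BCL2L11, carries out much of thymocyte death. All of this is control at the level of protein as well as RNA, and only RNA was measured here.

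Promoter windows are shown for 4 members, chosen after their values were seen: a pro-survival gene (BCL2), an effector (BAX) and a BH3-only gene (BMF) with targeted libraries apart from controls in all 3 lines, and BCL2L11, which went in opposite directions between lines. BCL2L1 and BAK1 were also apart in all 3 lines, and their windows are not shown. They are the 250 bases before the annotated start, from RefSeq (GRCh38.p14), 5′ to 3′ on the gene's strand. Of the 10 members 8 were matched in that table, with 2 starts each for BCL2L1 and BMF, of which the first listed is shown for BMF. MCL1 and BIK had no entry. Capitals mark CACGTG (an E-box that MYC can bind), GTAAACA (a forkhead motif that FOXO factors can bind) and GGGCGG (a GC box), on either strand.
BCL2, chr18:63319770-63320019, minus strand: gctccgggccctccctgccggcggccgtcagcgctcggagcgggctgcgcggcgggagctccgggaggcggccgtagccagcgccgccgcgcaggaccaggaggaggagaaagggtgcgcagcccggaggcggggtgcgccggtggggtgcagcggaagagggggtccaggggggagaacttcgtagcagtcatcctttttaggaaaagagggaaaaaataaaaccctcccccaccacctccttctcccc
BAX, chr19:48954625-48954874, plus strand: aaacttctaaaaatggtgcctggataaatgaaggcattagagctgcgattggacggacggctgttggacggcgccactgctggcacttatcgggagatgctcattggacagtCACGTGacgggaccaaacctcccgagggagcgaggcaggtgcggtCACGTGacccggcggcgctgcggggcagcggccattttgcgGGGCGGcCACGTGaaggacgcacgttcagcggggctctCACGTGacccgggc
BMF, chr15:40108880-40109129, minus strand: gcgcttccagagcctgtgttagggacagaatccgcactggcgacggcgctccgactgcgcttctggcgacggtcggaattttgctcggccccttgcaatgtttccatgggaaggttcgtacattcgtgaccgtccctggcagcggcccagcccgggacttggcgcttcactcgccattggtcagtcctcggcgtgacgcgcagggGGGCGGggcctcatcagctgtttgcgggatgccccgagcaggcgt
BCL2L11, chr2:111120664-111120913, plus strand: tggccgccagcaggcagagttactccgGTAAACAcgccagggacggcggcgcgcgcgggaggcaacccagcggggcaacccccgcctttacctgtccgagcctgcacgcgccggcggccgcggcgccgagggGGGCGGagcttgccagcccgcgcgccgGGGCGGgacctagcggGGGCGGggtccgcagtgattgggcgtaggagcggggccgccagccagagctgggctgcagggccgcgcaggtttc
The BAX window holds CACGTG at 4 places and GGGCGG at 1. The BCL2L11 window holds GTAAACA at 1 place and GGGCGG at 3, the BMF window GGGCGG at 1, and the BCL2 window none of these letters. Among all 35116 promoters of the same length, 6.34% hold CACGTG, 2.98% GTAAACA and 42.6% GGGCGG on either strand. Searches for TGTGGT (RUNX), in 11.0% of all promoters, and CCGGAAGT (ETS), in 3.42%, found 1 and 0 of the 10 member windows. These matches describe letters only and say nothing of binding in these cells.

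Each value given below is a normalised read count. Changes are differences of log2(normalised count + 1), targeted minus control, fitted with limma and given with their standard error (SE). A call is a Benjamini-Hochberg adjusted p under 0.05 over all genes tested. Recovered reads per library numbered 34547469 to 72178929. Guide and ASO libraries of 1 line and arm lay about as close as replicates, except 1 KOPTK1 pair. The mean chi-square per gene, which is 1 for counting noise alone, was 2.57 to 6.77 for the 5 pairs within a group. For 8 pairs of a guide and an ASO library it was 2.29 to 14.6, with the 14.6 from that KOPTK1 pair. It was 168 to 305 between control and targeted libraries of a line. No label ties a library to a culture of its own, so a p-value reflects only how much these libraries vary, which may be technical. The library of KOPTK1 with guide 1 stood apart in 1 respect. Fibroblast markers (COL1A1, COL1A2, COL3A1, PDGFRB, DCN) summed to 813 there and to 7.17 to 59.5 in the other 15 libraries, with COL3A1 at 75.1 there and at 0 in all the others. Without it every call of a member in the guide and joint comparisons held except BBC3 with guides (0.74, adjusted p 0.0571). All 8 T-lineage markers checked were expressed in every line, and their summed level went from 115490 to 138525 in controls to 50924 to 67727 in targeted libraries. The summed level of 4 NK and cytotoxic markers, of which 1 averaged 20 or more in each line, was 734 to 1710 in controls and 180 to 550 in targeted libraries. That of 4 B-cell markers, again with 1 at 20 or more, was 322 to 2008 and 125 to 405. In HPB-ALL the sum of 5 epithelial markers was 209 to 243 in controls and 23.8 to 23.9 in targeted libraries. Of these 5, 2 averaged 20 or more in the HPB-ALL controls. Myeloid and erythroid markers summed to at most 48.6 and 14.3 in any library. Mitochondrial RNA took 1.84% to 2.48% of counts in controls and 2.46% to 3.25% in targeted libraries. The part of these shifts in the results below was not tested. In RNA from whole cultures, fewer cells expressing a gene and less RNA per cell cannot be told apart.

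The 3 lines started from different settings of the family. Per kb of exon (GENCODE 29 exon lengths), BCL2L1, which encodes the survival protein BCL-XL, was the highest member in CUTLL1 controls at 4145 ± 35.6 normalised counts per kb and in KOPTK1 controls at 3644 ± 20.2 (SD, n = 2 each). PMAIP1, which encodes NOXA, a BH3-only protein that mainly neutralises MCL1, was the highest in HPB-ALL controls at 5683 ± 379 per kb (SD, n = 2). These leaders did not depend on whether the exon union or the longest transcript set the length. In CUTLL1 controls PMAIP1 (3071 ± 159 per kb) and MCL1 (2536 ± 69.5 per kb) followed BCL2L1 in that order, and their SDs did not overlap (n = 2 each). In KOPTK1 controls MCL1 was at 2114 ± 88.0, BAX at 1509 ± 39.4 and PMAIP1 at 1458 ± 111 per kb, of which BAX and PMAIP1 did not differ beyond their spread (SD, n = 2 each), and with the longest transcript BAX stood above MCL1. In HPB-ALL controls MCL1 was at 2821 ± 4.56, BCL2L1 at 1189 ± 19.2 and BAX at 1157 ± 40.2 per kb, and the last pair did not differ beyond its spread. With the longest transcript that pair was apart, with BAX at 2205 and BCL2L1 at 1510 per kb. BCL2 itself was low per kb in all 3 lines, at 291 ± 7.22 in CUTLL1, 318 ± 8.22 in KOPTK1 and 255 ± 4.48 in HPB-ALL (SD, n = 2 each). In CUTLL1 and KOPTK1 each of these control pairs is a guide control and an ASO control.

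**Figure D1:**
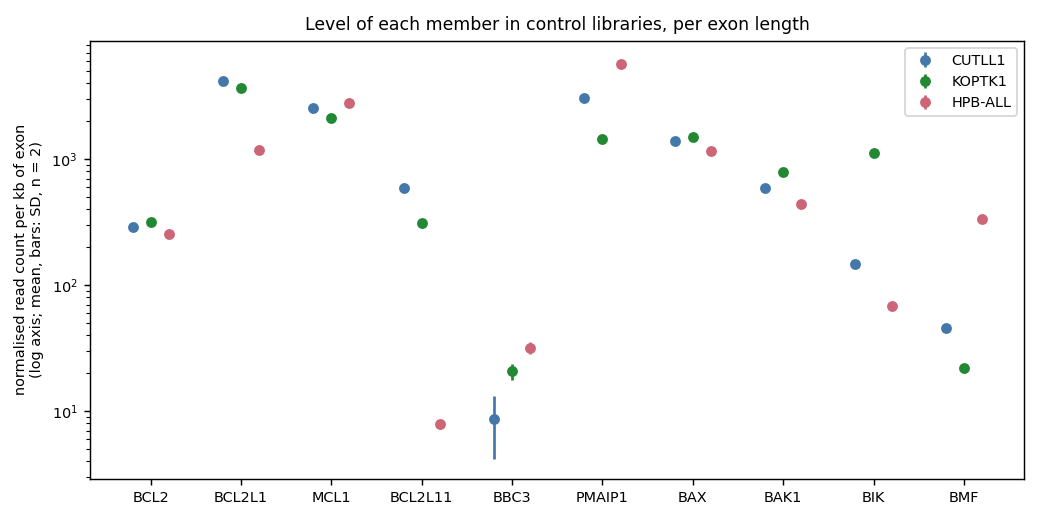
Level of each member in the 2 control libraries of each line (points: mean normalised read count per kb of exon; bars: SD, n = 2; log axis). The 3 lines lie close together for BCL2, MCL1 and BAX and far apart for BCL2L11, BIK and BMF, with BCL2L11 at 7.89 per kb in HPB-ALL and 593 per kb in CUTLL1.

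Among control libraries all 10 members differed between the lines by limma's F test, where 92.7% of 14228 genes did. The gaps between lines were widest for the BH3-only genes BCL2L11, BIK and BMF. BCL2L11 read 3897 and 4003 in the CUTLL1 controls, 2084 and 2058 in the KOPTK1 controls, and 55.5 and 49.5 in the HPB-ALL controls (guide control then ASO control, or control 1 then control 2 in HPB-ALL). HPB-ALL thus held far less BIM RNA than the other lines before any targeting, by -6.21 against CUTLL1 (SE 0.066, adjusted p 1.34e-09) and -5.28 against KOPTK1 on the log2 scale. BMF, whose BH3-only protein is released from the cytoskeleton, ran the other way and was 3.90 higher in HPB-ALL than in KOPTK1 controls (adjusted p 8.12e-09). BIK, which encodes a BH3-only protein of the endoplasmic reticulum, was 2.90 higher in KOPTK1 than in CUTLL1 controls (SE 0.092), and BBC3 in HPB-ALL against KOPTK1 was the 1 pair of levels not called (0.62, adjusted p 0.130). KOPTK1 against CUTLL1 controls had 5 members higher and 5 lower, where 38.3% of genes were higher, 37.8% lower and 76.1% called either way. HPB-ALL had 4 higher and 6 lower against CUTLL1 (40.1%, 39.3% and 79.4% of genes) and 3 higher and 6 lower against KOPTK1 (39.7%, 39.9% and 79.5%).

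Targeting was compared with control in 3 fits. In the guide comparison, over 10 libraries of 3 lines, 4 of 10 members rose and 3 fell, where 32.7% of 14069 genes rose and 35.0% fell (67.7% either way). In the ASO comparison, over 6 libraries of 2 lines, 5 rose and 3 fell, where 31.8% of 13712 genes rose and 33.2% fell (65.0% either way). In the joint comparison of all 16 libraries 4 rose and 3 fell, where 36.2% of 14020 genes rose and 38.8% fell (75.0% either way). Counting guide and ASO libraries of each line and arm once, 2 members rose jointly, where 23.8% of all genes rose and 49.4% were called either way, and BAK1 (0.19, adjusted p 0.0687) and BBC3 (0.72, adjusted p 0.107) were not called. In each fit as first given the members were thus called about as often as all genes. The members' median log2 fold change was -0.12 with guides, 0.04 with ASOs and -0.14 jointly, against -0.03, -0.01 and -0.03 over all genes, so the family did not shift as a block. Their median absolute change was 0.73 with guides, 0.66 with ASOs and 0.48 jointly, against 0.39, 0.37 and 0.37 over all genes.

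**Figure D2:**
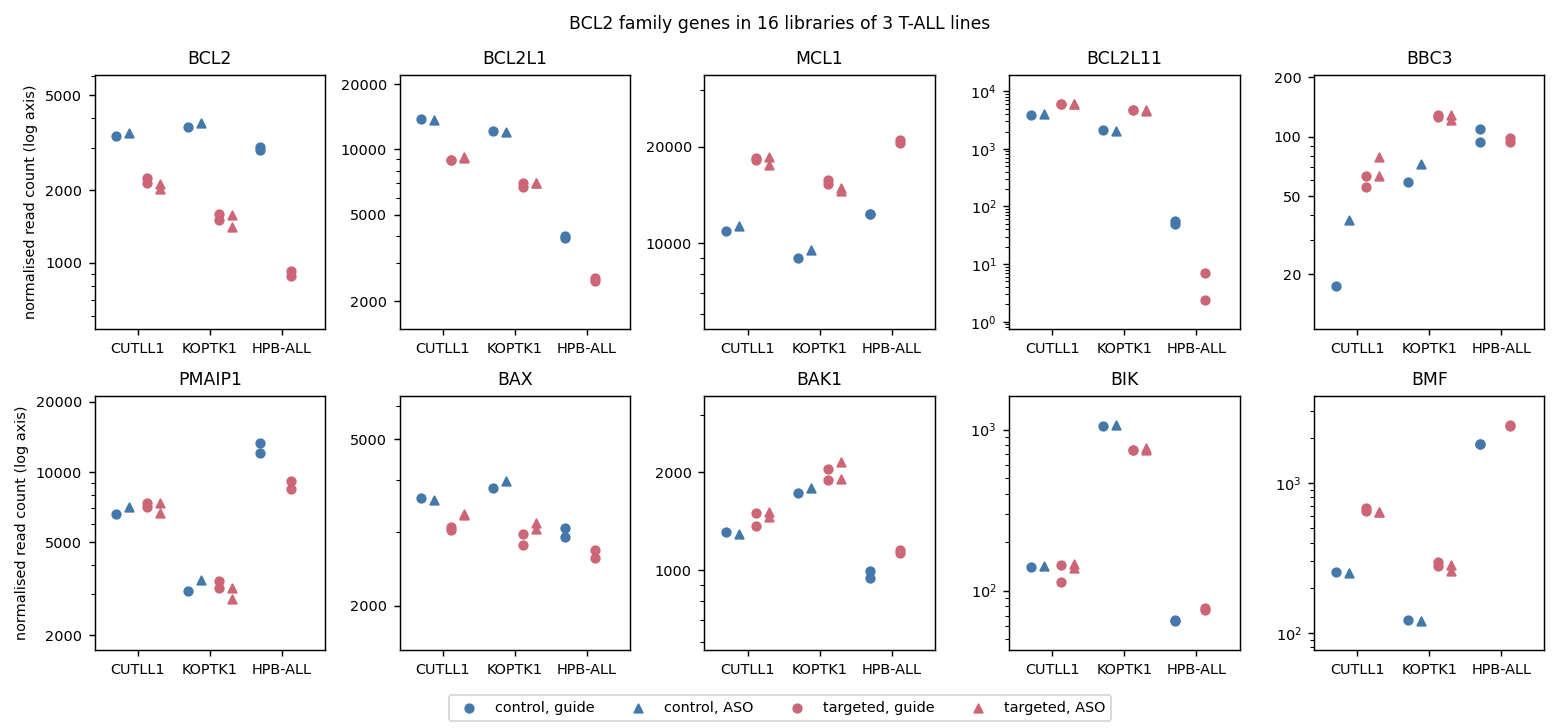
Normalised read count of each member (log axis, one panel per gene) in each of 16 libraries by line, with controls in blue, targeted libraries in red, circles for guides and triangles for ASOs. MCL1 sits higher and BCL2 and BCL2L1 sit lower in every targeted library than in the controls of the same line, and BCL2L11 moves up in CUTLL1 and KOPTK1 and down in HPB-ALL.

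Within the pro-survival genes, MCL1 rose while BCL2 and BCL2L1 fell. MCL1 encodes a short-lived survival protein. In CUTLL1, MCL1 read 10868 and 11298 in the guide and ASO controls and 18449, 18102, 18504 and 17527 with guide 1, guide 2, ASO 1 and ASO 2, an order kept in what follows. In KOPTK1 it read 8969 and 9512 in the controls and 15339, 15768, 14537 and 14851 in the targeted libraries. In HPB-ALL it read 12316 and 12344 in controls 1 and 2 and 20492 and 20982 with guides 1 and 2. Every targeted library lay above both controls of its line, and the ratio of means was 1.64 in CUTLL1, 1.64 in KOPTK1 and 1.68 in HPB-ALL. MCL1 rose by 0.76 in the guide comparison (SE 0.027, adjusted p 3.89e-08) and 0.65 in the ASO comparison (SE 0.034, adjusted p 1.88e-05). A difference of the guide effect on MCL1 between the lines was not detected (F 0.49, adjusted p 0.699), with fitted changes of 0.75, 0.79 and 0.75 (SE 0.031 to 0.038).

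BCL2 encodes the survival protein for which the family is named. In CUTLL1, BCL2 read 3363 and 3483 in the controls and 2142, 2249, 2133 and 2036 in the targeted libraries. KOPTK1 had 3676 and 3813 in the controls and 1499, 1589, 1412 and 1578 in the targeted libraries. HPB-ALL had 3035 and 2961 in the controls and 878 and 921 with guides. The ranges did not overlap in any line, and the depth of the fall differed between lines. The guide change was -0.62 in CUTLL1, -1.25 in KOPTK1 and -1.74 in HPB-ALL (SE 0.056 to 0.069), and the F test of this difference gave an adjusted p of 1.12e-05. With ASOs the change was -0.74 in CUTLL1 and -1.35 in KOPTK1. Over all libraries BCL2 fell by 1.19 on the log2 scale (SE 0.12, adjusted p 5.60e-07), lower in 10 of 10 targeted libraries.

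BCL2L1 fell in all 3 lines. Gene counts do not tell its splice forms, or those of MCL1, apart. In CUTLL1, BCL2L1 read 13821 and 13654 in the controls and 8968, 8988, 9199 and 9179 in the targeted libraries. In KOPTK1 it read 12125 and 12030 in the controls and 6979, 6739, 7001 and 6980 in the targeted libraries. In HPB-ALL it read 3987 and 3897 in the controls and 2559 and 2483 with guides. No targeted library reached a control of its line. With guides BCL2L1 fell by 0.69 (SE 0.040, adjusted p 4.86e-07), and in the ASO comparison it fell by 0.68 (SE 0.050, adjusted p 5.70e-05). The guide effect differed between lines (F 10.7, adjusted p 0.00975), at -0.62 in CUTLL1, -0.82 in KOPTK1 and -0.64 in HPB-ALL.

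The leading pro-survival RNA changed from BCL2L1 to MCL1 in CUTLL1 and KOPTK1, while MCL1 led in HPB-ALL in both arms. Of the summed per-kb level of MCL1, BCL2L1 and BCL2, MCL1 made up 36.4% ± 0.78 in CUTLL1 controls (SD, n = 2) and 58.7% ± 0.72 in CUTLL1 targeted libraries (SD, n = 4). In KOPTK1 its share was 34.8% ± 1.01 (SD, n = 2) against 60.9% ± 1.15 (SD, n = 4). In HPB-ALL it was 66.1% ± 0.40 against 85.0% ± 0.42 (SD, n = 2 each). BCL2L1 was the larger share in CUTLL1 and KOPTK1 controls, at 59.5% ± 0.86 and 60.0% ± 1.08, and the smaller one after targeting, at 38.8% ± 0.76 and 36.8% ± 1.20. The BCL2 share was 4.17% in CUTLL1 controls and 2.57% after targeting. KOPTK1 had 5.24% and 2.27%, and HPB-ALL 5.97% and 1.37%. In CUTLL1 and KOPTK1 the SDs take guide and ASO libraries together, so they are not the spread of replicates of a single treatment. The control pair of each of these lines is a guide control and an ASO control. These shares describe RNA and depend on the exon lengths used, and no test was made on them.

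**Figure D3:**
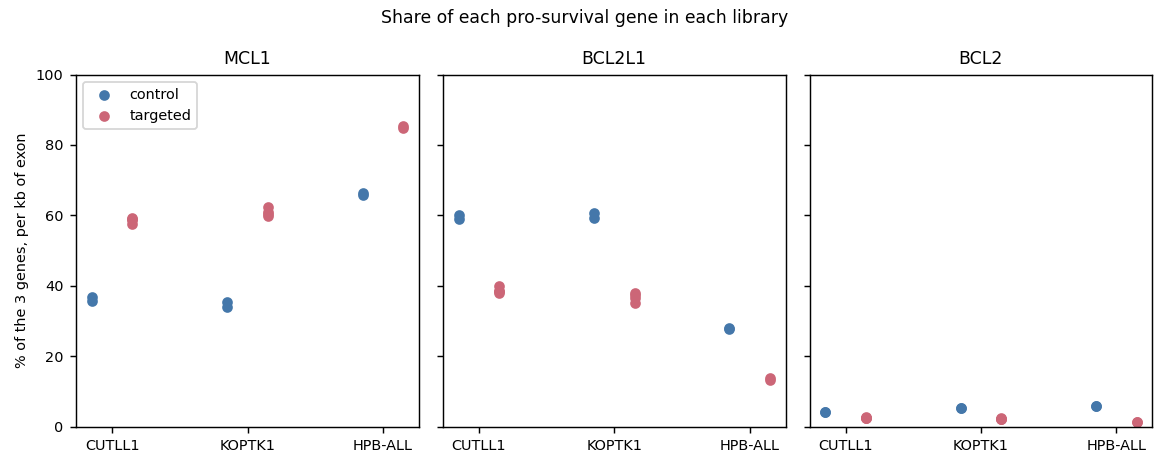
Share of MCL1, BCL2L1 and BCL2 in their summed level per kb of exon (percent, 1 point per library) by line, with controls in blue and targeted libraries in red. The MCL1 share is 34.1% to 36.9% in CUTLL1 and KOPTK1 controls and 57.7% to 62.5% in their targeted libraries, and it is highest in HPB-ALL.

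The effectors BAX and BAK1, whose proteins form the pores of the outer mitochondrial membrane, moved apart by small amounts. In CUTLL1, BAX read 3625 and 3573 in the controls and 3091, 3029, 3312 and 3292 in the targeted libraries. KOPTK1 had 3831 and 3975 in the controls and 2973, 2799, 3155 and 3044 in the targeted libraries, while HPB-ALL had 2920 and 3068 against 2721 and 2605. All 10 targeted libraries lay below the controls of their line, with the narrowest gap in HPB-ALL. With guides BAX fell by 0.26 (SE 0.048, adjusted p 9.35e-04), and in the ASO comparison it fell by 0.24 (SE 0.059, adjusted p 0.0121). Under the replicate block that ASO call was lost (-0.22, adjusted p 0.0600), as it was with ASO 1 alone (adjusted p 0.0921) or ASO 2 alone (adjusted p 0.0799). Both ASO controls carry the replicate number of ASO 1, so the block and ASO 1 alone give the same estimate and are not separate checks. Its guide effect differed between lines (adjusted p 0.0285), at -0.24 in CUTLL1, -0.41 in KOPTK1 and -0.17 in HPB-ALL, and that difference was not called without KOPTK1 guide 2 (adjusted p 0.0695), without HPB-ALL control 1 (0.0736) or guide 1 (0.0700), or with no filter (0.0775). In the CUTLL1 ASO experiment BAX was at -0.11 and did not pass (adjusted p 0.0662).

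BAK1 read 1309 and 1293 in the CUTLL1 controls and 1502, 1364, 1505 and 1459 in the targeted libraries. In KOPTK1 it read 1729 and 1785 against 2052, 1895, 2157 and 1914, and in HPB-ALL 996 and 942 against 1127 and 1151. The targeted libraries again lay clear of the controls, here above them, by ratios of means of 1.12 in CUTLL1, 1.14 in KOPTK1 and 1.18 in HPB-ALL. BAK1 rose by 0.19 in the guide comparison (SE 0.049, adjusted p 0.00645) and 0.19 in the ASO comparison (SE 0.059, adjusted p 0.0264). By experiment only HPB-ALL passed (0.23, adjusted p 0.00843), and the 4 others, at 0.13 to 0.20, had adjusted p of 0.0574 to 0.198. With the replicate block all 4 passed (0.17 to 0.24, adjusted p 0.00699 to 0.0355), and under quantile scaling 3 of them did (0.24 to 0.25, adjusted p 0.0156 to 0.0175), all but CUTLL1 guides. The replicate numbers on which the block rests did not pair the libraries. Without HPB-ALL the guide value was 0.16 (adjusted p 0.0682), and without HPB-ALL control 2 that line's value was 0.19 (adjusted p 0.0667). No difference between the lines was detected (F 0.49, adjusted p 0.697). The ratio of BAX to BAK1 counts on the log2 scale was 1.47 in CUTLL1 controls and 1.13 after targeting. KOPTK1 had 1.15 and 0.58, and HPB-ALL 1.63 and 1.22 (means of 2 to 4 libraries).

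Among the BH3-only genes, BMF rose in all 3 lines. In CUTLL1, BMF read 254 and 249 in the controls and 679, 650, 639 and 639 in the targeted libraries. KOPTK1 had 122 and 120 in the controls and 296, 277, 281 and 260 in the targeted libraries, and HPB-ALL had 1826 and 1813 against 2409 and 2430. The groups did not overlap, and the rise was 2.59-fold in CUTLL1, 2.30-fold in KOPTK1 and 1.33-fold in HPB-ALL, the line with the highest starting level. BMF rose by 0.92 in the guide comparison (SE 0.15, adjusted p 4.63e-04) and 1.26 in the ASO comparison (SE 0.093, adjusted p 5.79e-05). The guide effect differed between lines (F 50.1, adjusted p 6.27e-05).

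BCL2L11 went in opposite directions. Its protein BIM binds all pro-survival members of the family. In CUTLL1, BCL2L11 read 3897 and 4003 in the controls and 5943, 5951, 6024 and 5915 in the targeted libraries. In KOPTK1 it read 2084 and 2058 in the controls and 4638, 4802, 4585 and 4761 in the targeted libraries. HPB-ALL had 55.5 and 49.5 in the controls and 2.39 and 6.92 with guides. The ratio of targeted to control means was 1.51 in CUTLL1 and 2.27 in KOPTK1, while HPB-ALL went from 94 reads over 2 control libraries to 12 reads over 2 guide libraries. Scaled for depth, the HPB-ALL controls were 11.1 times as high (95% exact interval 6.05 to 22.2, covering counting error only). The guide effect differed between the lines (F 73.4, adjusted p 1.50e-05), and the guide comparison over all 3 gave -0.93 (SE 0.72, adjusted p 0.274). With ASOs, which were used in CUTLL1 and KOPTK1, BCL2L11 rose by 0.88 (SE 0.12, adjusted p 9.29e-04). In the shared fit of 5 experiments the KOPTK1 rise passed with guides (1.18, adjusted p 0.00801) and ASOs (1.18, adjusted p 0.00787), and the CUTLL1 rise did not (0.61 and 0.58, SE 0.33 each, adjusted p 0.128 and 0.148). The 3 and 9 reads of the 2 HPB-ALL guide libraries enter the spread of that fit, and without guide library 1 or 2 of HPB-ALL the CUTLL1 guide value of 0.61 had an adjusted p of 2.14e-05 or 2.29e-05. With no filter the KOPTK1 rises were not called (adjusted p 0.0773 and 0.0774).

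BBC3, which encodes the BH3-only protein PUMA, was the lowest member per kb in CUTLL1 controls. BBC3 read 17.6 and 38.0 in the CUTLL1 controls and 63.5, 55.9, 78.9 and 63.3 in the targeted libraries. KOPTK1 had 59.1 and 73.0 in the controls and 129, 127, 129 and 122 in the targeted libraries. In HPB-ALL it read 93.8 and 110 in the controls and 98.9 and 93.8 with guides. CUTLL1 and KOPTK1 thus showed higher values in all 8 targeted libraries, and the HPB-ALL groups overlapped. BBC3 rose by 0.77 in the guide comparison (SE 0.27, adjusted p 0.0300) and 0.82 in the ASO comparison (SE 0.16, adjusted p 0.00434). The single CUTLL1 guide control rests on 18 reads. Without it the guide value was 0.40 (adjusted p 0.163), and leaving out the guide control of KOPTK1 (0.64, adjusted p 0.117) also ended the call, as did leaving out any 1 of the 4 CUTLL1 and KOPTK1 guide libraries (0.68 to 0.75, adjusted p 0.0552 to 0.0576). The guide effect differed between the lines (F 25.2, adjusted p 6.72e-04), at 1.71 in CUTLL1, 1.10 in KOPTK1 and -0.07 in HPB-ALL.

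By experiment PMAIP1 was called in HPB-ALL and in no other line. PMAIP1 read 6614 and 7115 in the CUTLL1 controls and 7342, 7110, 7339 and 6648 in the targeted libraries. In KOPTK1 it read 3083 and 3434 against 3201, 3397, 2868 and 3186. HPB-ALL had 12102 and 13300 in the controls and 8494 and 9152 with guides. The groups overlapped in CUTLL1 and KOPTK1 and were apart in HPB-ALL, where the change was -0.53 (SE 0.066, adjusted p 2.00e-05). The guide effect on PMAIP1 differed between the lines (F 26.7, adjusted p 5.55e-04), and neither the guide (-0.16, adjusted p 0.222) nor the ASO comparison (-0.11, adjusted p 0.204) passed. The KOPTK1 ASO value of -0.18 (adjusted p 0.0668) passed with the replicate block (-0.21, adjusted p 0.0384), whose numbers did not pair the libraries. Without KOPTK1 ASO 2 it was -0.26.

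BIK moved with targeting in KOPTK1, the line where it was highest. In KOPTK1, BIK read 1055 and 1066 in the controls and 743, 743, 764 and 744 in the targeted libraries. In CUTLL1 it read 140 and 142 against 144, 114, 138 and 147, and in HPB-ALL 64.8 and 65.7 against 75.8 and 78.4. KOPTK1 fell by 0.51 with guides and by 0.50 with ASOs (SE 0.14 each, adjusted p 0.00825 and 0.00878), and both calls were lost with quantile scaling (-0.34, adjusted p 0.0612 and 0.0630). The HPB-ALL value of 0.24 did not pass (adjusted p 0.0852), though its groups did not overlap, and it passed under quantile scaling (0.50, adjusted p 0.00285). It also passed without CUTLL1 guide 1 or 2 (0.24, adjusted p 0.0411 or 0.0400), libraries that enter the shared fit. The guide effect on BIK differed between lines (F 8.45, adjusted p 0.0183).

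**Figure D4:**
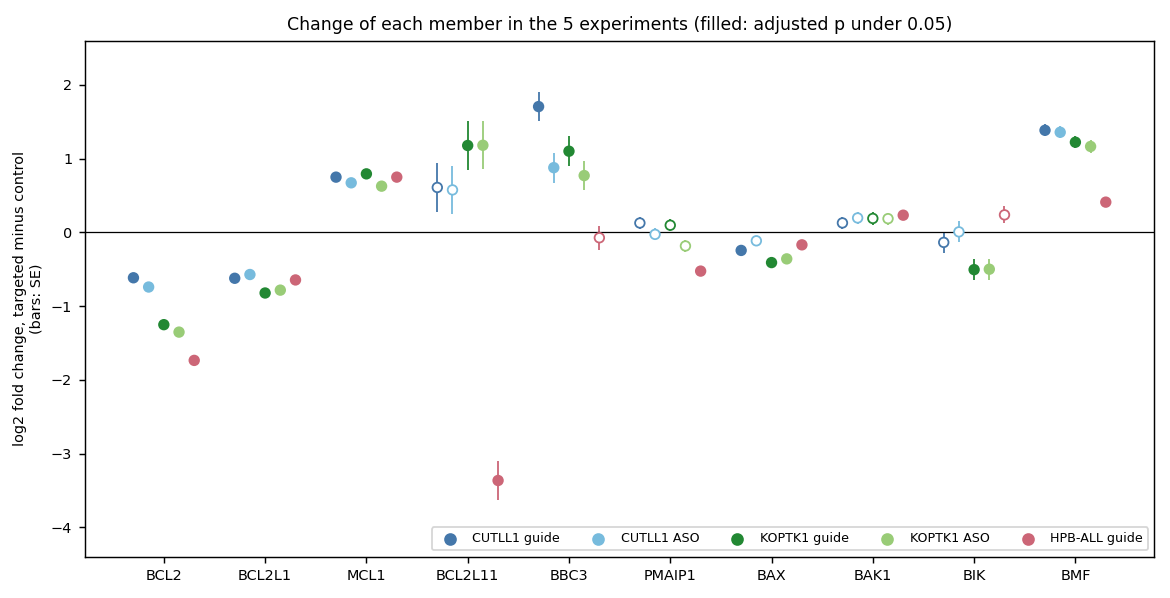
Log2 fold change of each member, targeted minus control (points; bars: SE), in each of 5 experiments from 1 limma fit of 16 libraries, with filled points for an adjusted p under 0.05. MCL1 lies between 0.63 and 0.79 in all 5 experiments, BCL2 falls furthest in HPB-ALL at -1.74, and BCL2L11 falls in HPB-ALL at -3.37 and lies above 0 elsewhere.

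Counted by experiment, 3 members were called higher and 3 lower with guides in CUTLL1, where 30.8% of 14020 genes were higher and 31.5% lower (62.3% either way). KOPTK1 guides had 4 higher and 4 lower, with 31.0% and 33.1% of genes (64.1%). HPB-ALL guides had 3 higher and 5 lower, with 34.0% and 36.9% of genes (70.9%). With ASOs CUTLL1 had 3 higher and 2 lower, with 30.5% and 31.8% of genes (62.3%), and KOPTK1 had 4 and 4, with 30.6% and 32.8% (63.4%). The control and targeted ranges did not overlap for 8 members in CUTLL1, 9 in KOPTK1 and 9 in HPB-ALL, and for 79.4%, 75.8% and 84.7% of all genes. The guide effect differed between lines for 8 of 10 members, where 43.7% of genes differed, and MCL1 and BAK1 were the 2 not called.

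Guides and ASOs were compared in the 2 lines that had both. In the test of the guide effect minus the ASO effect, limma called 0 of 14020 genes and 0 members, with 0.0% of genes called and 1393 genes and 3 members (BBC3, MCL1 and PMAIP1) at an unadjusted p under 0.05, and edgeR also called 0. This count depends on the filter, as limma with no filter called 1501 of 34609 genes (4.34%), none of them a member. A pseudocount of 5 and quantile scaling each called 1 gene, again no member. The members' estimates ran from -0.09 (BAX, SE 0.050) to 0.58 (BBC3, SE 0.20), and MCL1 was 0.12 higher with guides (SE 0.038, adjusted p 0.496). Guide 2 minus guide 1 also gave 0 calls by limma (0.0% of 13718 genes) with 2193 genes and 0 members at an unadjusted p under 0.05, while edgeR called 209 genes. A p that misses the threshold does not show that the 2 ways of targeting act alike.

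The rest of the death pathway, from lists of related genes, moved in both directions. Of 8 testable other BCL2 family genes, 3 rose and 1 fell in the joint comparison, where 36.2% of 14020 genes rose and 38.8% fell. Called either way were 75.0% of all genes. BCL2L2, which encodes the survival protein BCL-W, rose by 0.95 (SE 0.11, adjusted p 1.43e-06), BCL2L12 rose by 0.64 and BNIP3L, a mitophagy receptor gene, rose by 1.12. BID, whose protein links death receptors to mitochondria, was at -0.54 (SE 0.031, adjusted p 1.37e-09), below its control in 10 of 10 targeted libraries. Their median was 0.21 against -0.03 over all genes.

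Downstream of the mitochondria, 6 of 13 apoptosome and caspase genes rose and 4 fell (median 0.07), where 36.2% of genes rose and 38.8% fell. APAF1, the scaffold of the apoptosome, rose by 0.89 (SE 0.046) and CASP9, the caspase it activates, by 1.02 (SE 0.042), each in 10 of 10 targeted libraries. DFFB, the caspase-activated nuclease gene, was at -2.10 (SE 0.14), its inhibitor gene DFFA at -0.28 and AIFM1 at -0.45. CASP10 was at -0.29 jointly (adjusted p 0.0489) and passed in neither the guide (adjusted p 0.115) nor the ASO comparison (adjusted p 0.221). CYCS, the cytochrome c gene, was at -0.01 jointly and did not pass (adjusted p 0.863). With guides CYCS was at 0.07 (adjusted p 0.295), and with ASOs it was called lower (-0.15, adjusted p 0.0368). Of 7 tested genes of the inhibitors of apoptosis and their antagonists, 4 rose and 3 fell (median 0.07). The same shares of all genes stand beside them. BIRC2 was at 0.32, DIABLO, an antagonist gene, at 0.45 and BIRC5 at 0.07, while XIAP was at -0.32, BIRC3 at -0.71 and HTRA2 at -0.70. Of 3 tested outer membrane channel genes VDAC3 rose (0.26) and VDAC1 fell (-0.28).

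Of 9 tested death receptor genes 6 fell and 2 rose jointly, with a median of -0.77, where 38.8% of all genes fell and 36.2% rose. In the HPB-ALL guide experiment 3 fell and 3 rose, with a median of -0.37, where 36.9% of genes fell and 34.0% rose. In CUTLL1 5 fell and 2 rose with guides (31.5% and 30.8% of genes). With ASOs there 4 fell and 2 rose (31.8% and 30.5%). In KOPTK1 6 fell and 2 rose with guides (33.1% and 31.0%), and 5 fell and 2 rose with ASOs (32.8% and 30.6%). CFLAR, which encodes the caspase-8 inhibitor FLIP, fell by 1.90 on the log2 scale (SE 0.081, adjusted p 8.68e-11), the receptor gene FAS by 1.26 and TNFRSF1A by 0.77, and the adaptor genes TRADD (0.70) and RIPK1 (0.68) rose. Of 16 tested regulators of the family 8 rose and 6 fell (median 0.20), beside the same shares of all genes. FOXO1, whose protein can drive BCL2L11 and BMF, rose by 1.68 (SE 0.088, adjusted p 5.83e-10). Its mean count went from 32.3 to 126 in CUTLL1, 76.1 to 232 in KOPTK1 and 173 to 474 in HPB-ALL. FOXO4 rose by 0.71 and USP9X, the deubiquitinase that stabilises MCL1 protein, by 0.63. STAT5A, which acts downstream of interleukin-7 on BCL2, was at -2.09 (SE 0.12) and MYB at -0.74. The mean STAT5A count went from 286 to 56.3 in CUTLL1, 9882 to 2837 in KOPTK1 and 28.8 to 5.47 in HPB-ALL. Whether any of these regulators moved a member was not tested.

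The genes closest in pattern to each member were found by the root mean square difference over 16 libraries of log2 values centred on each gene's mean, among 14019 others. For MCL1 they were TAX1BP1 (0.065) and HDAC6 (0.074), for BAX NCLN (0.054) and BTN2A1 (0.057), and for BAK1 CDC25B (0.060) and NFS1 (0.067). BCL2L1 was closest to RBL2 (0.13) and EXOSC7 (0.14), BCL2 to KRT8P12 and PTPRCAP (0.17 each) and PMAIP1 to SLC25A37 (0.16) and ZNF501 (0.17). BMF was closest to FZD1 (0.28) and SGK1 (0.34), BIK to LZTS1 (0.17) and RPL22L1 (0.27), and BBC3 to CTD-2228K2.7 (0.28) and NABP1 (0.29). BCL2L11 was closest to PTPRK and IGSF3 (0.50 each), where the SD of BCL2L11 itself over the libraries was 3.72, against 0.39 for MCL1 and 0.17 for BAX. The distances mix differences between lines with those between arms.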

How the data were processed

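RNA-seq of 16 libraries was taken from 1 deposited table, whose signal is a normalised read count. Within each of the authors' columns, 100% of values were whole multiples of 1 step (tolerance 1e-06), so reads could be recovered. STAR 1.4.2, DESeq2 and hg19 appear, without roles, per the submitters' processing notes. The sources used here name no counter, annotation or strand setting. The titles number targeted libraries as guide or ASO 1 and 2, the descriptions call them replicates, and they were used as replicates. SDs given for CUTLL1 and KOPTK1 take guide and ASO libraries together.

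limma 3.58.1 (R 4.3.3) with an intensity trend was fitted to log2(value + 1) for genes averaging at least 20 across the fit. All 10 members passed this filter. The guide and ASO fits had cell line as a term and the joint fit had experiment. The 5 experiments, line differences and guide minus ASO came from 1 fit of 10 group means, where a lone control was assumed to vary like the other groups. The added 1 shrinks the changes of genes with low counts.

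Alternatives were a pseudocount of 5, no filter or a mean of 100, 2 other scalings, robust moderation, a replicate block, 1 guide or ASO number, leaving out each library, and edgeR 4.0.16 and DESeq2 1.42.0 on recovered reads (without CUTLL1 ASO 1, whose read step is too near 1 to check). Scripts were tested on simulated counts. From each related list up to 3 genes per direction with the smallest joint p are named, except 2 that are not reported here, and CASP10 and CYCS were chosen after their values were seen. Members and lists were chosen with earlier results of these data known. Lengths came from GENCODE 29 (GRCh38) by symbol, with no coordinates.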

Additional observations from a re-analysis of the deposited data

Results flagged for a closer look

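A difference of the guide effect between CUTLL1, KOPTK1 and HPB-ALL passed limma's F test for 8 of the 10 members. Over all 14020 genes tested 43.7% passed. The adjusted p was 1.12e-05 for BCL2, 1.50e-05 for BCL2L11, 6.27e-05 for BMF and 5.55e-04 for PMAIP1. It was 6.72e-04 for BBC3, 0.00975 for BCL2L1, 0.0183 for BIK and 0.0285 for BAX. The BAX call was lost under the alternatives given beside that gene above. The values in each line stand beside each gene above.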

How the results depend on the processing

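The rises of MCL1 and BMF and the falls of BCL2 and BCL2L1 kept direction and call in the guide, ASO and joint comparisons under every alternative run. MCL1 ranged from 0.75 to 0.78 with guides, 0.61 to 0.67 with ASOs and 0.70 to 0.74 jointly. The number of members higher went from 4 to 2 with guides and from 5 to 3 with ASOs when number 2 alone was used, where the share of all genes called higher went from 32.7% to 26.4% and from 31.8% to 20.7%. It went from 4 to 2 jointly when each line and arm counted once (chosen after seeing the data; 36.2% to 23.8% of all genes), where BAK1 (adjusted p 0.0687) and BBC3 (adjusted p 0.107) were lost. Members higher in the CUTLL1 ASO experiment went from 3 to 5 with a pseudocount of 5 or quantile scaling (30.5% of all genes to 31.5% or 35.5%). The leave-one-out counts that follow have no shares of all genes beside them and show only how steady the members' own calls were. Leaving out 1 library gave 3 to 4 higher and 3 to 3 lower with guides, 4 to 5 and 3 to 4 with ASOs, 4 to 4 and 3 to 4 jointly, and 7 to 8 members differing between lines.

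Quantile scaling moved the median of all genes from -0.03 to 0.07 with guides, where 4599 genes higher and 4920 lower became 5522 and 4130, with the same turn in the ASO (5109 and 3918) and joint (6045 and 4590) comparisons. It turned BIK (0.19 with guides, 0.11 jointly, 0.18 in CUTLL1 guides) and BBC3 in HPB-ALL guides (0.23). Without HPB-ALL, BCL2L11 rose by 0.89 in both the guide and joint comparisons and PMAIP1 was at 0.11 and 0.0035. With edgeR on recovered reads BCL2L11 was at 0.49 with guides and 0.70 jointly (adjusted p 0.300 and 0.0259). The ASO call of BAK1 was lost with edgeR (adjusted p 0.0797), DESeq2 (0.0897) and without any 1 of 5 of the 6 ASO libraries (0.0556 to 0.0738). Leaving out 1 library turned the sign of some estimates. The ranges were -0.14 to 0.088 for BIK with guides and -0.50 to 0.0074 for BIK with ASOs. For BCL2L11, which went in opposite directions between lines, the joint range was -0.60 to 0.16. By experiment the ranges were -0.18 to 0.038 for BBC3 in HPB-ALL, -0.30 to 0.032 and -0.039 to 0.053 for BIK in CUTLL1 guides and ASOs, and -0.098 to 0.045 for PMAIP1 in CUTLL1 ASOs. Guide minus ASO ran from -0.075 to 0.011 for BAK1 and from -0.16 to 0.0094 for BIK, and guide 2 minus guide 1 from -0.17 to 0.025 for BIK. Replicate numbers did not pair the libraries (correlations of deviations -0.014 to 0.065). With the replicate block 3 members were higher and 3 lower with guides (BBC3 0.72, adjusted p 0.0620) and 5 and 2 with ASOs (BAX -0.22, adjusted p 0.0600). Of all genes 31.7% were higher and 33.6% lower with guides under that block, and 26.1% and 27.1% with ASOs.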
